A study of Saccharomyces cerevisiae with 7 samples.

Results

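The genes described here encode the cohesin complex of budding yeast, Saccharomyces cerevisiae, with the factors that load it, regulate it and cut it. They were chosen by gene symbol, 10 of the 5449 genes measured: SCC2 and SCC4 of the loader, MCD1, SMC1, SMC3 and IRR1 of the ring, the regulators PDS5, RAD61 and ECO1, and ESP1, the protease. Each was represented by a single probe set that the platform annotation gives to no other gene. The RNA came from 7 one-colour Affymetrix arrays, on which each probe set has a log2 signal. Wild type, scc2-4 and sth1-3 cells at 37C were each hybridised to 2 arrays, and wild type cells at 25C to a single one. Both mutants carry temperature-sensitive alleles, of SCC2 and of STH1, the ATPase of the nucleosome remodeller RSC. Cultures in rich medium (2% glucose) had reached an OD600 of 0.25 when the cells of the 37C groups were moved to that temperature for 2 h.

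The wild type strain was MATa and psi+, with GAL and the alleles ura3-52, his3-11,15, leu2-3, 112, can1-100, trp1-1 and ade2-1. The scc2-4 strain was MATa and carried Scc1-Pk9::TRP1 and Sth1-9myc::URA3. The sth1-3 strain was MATα and carried Scc2-Pk9::TRP1. The product of MCD1 (Scc1) was therefore tagged in scc2-4 and that of SCC2 in sth1-3, and neither was tagged in wild type. Strain, tag and, for sth1-3, mating type cannot be told apart from the mutation. Whether replicates were separate cultures is not stated in the labels, and the p-values rest on a spread between arrays that may be technical.

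Cohesin is a ring of Smc1, Smc3 and the kleisin Mcd1 that holds sister chromatids together from replication to anaphase. Scc2 and Scc4 form the loader that places the ring on chromosomes. Eco1 acetylates Smc3 to make cohesion lasting, Rad61 promotes release of the ring, and Esp1, the separase, cleaves Mcd1 at anaphase. The sample titles and design text pose the question of how transcript levels change when Scc2 or Sth1 loses function.

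The array also carries probe sets for the fission yeast Schizosaccharomyces pombe, which was not in the samples, and the 95th percentile of its 1746 named probe sets on the same array served as the background level. It lay at 9.94 to 10.07 over the arrays, and the S. pombe median at 8.33 to 8.54. The arrays fell into a set of 3 (wild type 25C and replicate 1 of both mutants) and a set of 4 (both wild type 37C arrays and replicate 2 of both mutants), seen in the bacterial hybridisation controls (12.3 to 12.6 against 11.6 to 11.8) and in the excess of the 3' over the 5' probe set of 25S ribosomal RNA (3.03 to 4.16 against 0.30 to 0.69). The same excess for ACT1, an actin messenger RNA, ran from -0.31 to 1.60 and overlapped between the sets. Mating type could not be checked, since none of 7 a-specific and 5 alpha-specific genes was above background on any array (7.11 to 9.48 and 6.90 to 9.59).

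SCC4 was the only member above background on every array, which held for 116 of all genes (2.13%). SMC1 and IRR1 passed on some arrays, so that 3 of the 10 members were above background at least once, against 22.6% of all genes. The other 7, SCC2 among them, were not above it on any array. Their values are therefore only a bound, and differences in these 7 genes were not measurable at this signal. A dim probe set does not show that a gene is silent.

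**Figure D1:**
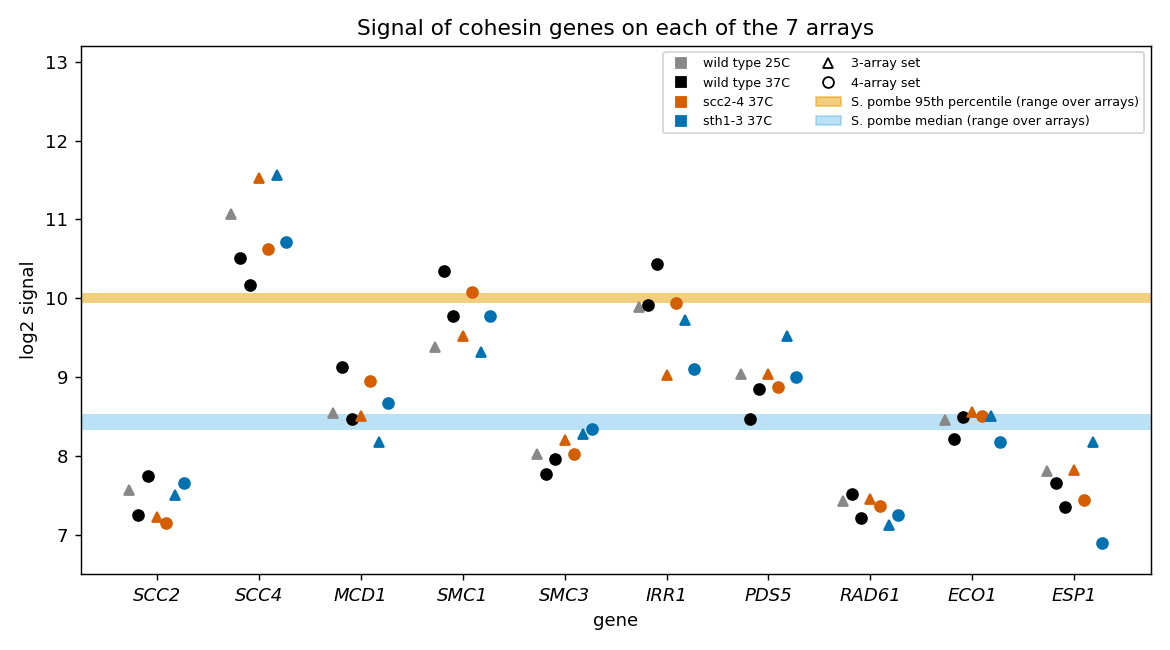
Log2 signal (vertical axis) of each cohesin gene (horizontal axis) on the 7 arrays, coloured by strain and temperature, with triangles for the 3-array set and circles for the 4-array set. The bands span the S. pombe 95th percentile (9.94 to 10.07) and median (8.33 to 8.54) over the arrays, and SCC4 is the gene whose 7 points all lie above the upper band.

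SCC4 (YER147C) encodes the loader subunit that binds Scc2 and directs it to centromeres. It measured 11.07 in wild type at 25C, 10.51 and 10.17 in wild type at 37C, 11.52 and 10.63 in scc2-4, and 11.56 and 10.72 in sth1-3 (replicates 1 and 2). Both arrays of either mutant lay above both wild type 37C arrays, and replicate 1 of each mutant was the higher. The margin over background ran from 0.098 on wild type 37C replicate 2 to 1.58 on scc2-4 replicate 1. Between 96.1% and 100.0% of S. pombe probe sets were dimmer than SCC4 on the same array, and on replicate 1 of both mutants all were. It was above the 99th S. pombe percentile on 5 arrays. The 2 others were both wild type 37C arrays, where 98.8% and 96.1% of S. pombe probe sets were dimmer. The group that serves as the reference for the mutants was thus the one nearest to background.

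SCC2 (YDR180W) encodes the other loader subunit, which activates the ATPase of cohesin, and is the gene mutated in scc2-4. It measured 7.56 in wild type at 25C, 7.25 and 7.74 in wild type at 37C, 7.22 and 7.15 in scc2-4, and 7.50 and 7.66 in sth1-3. The scc2-4 arrays were the lowest of the 7, with wild type 37C replicate 1 just above them. All 7 values lay below the S. pombe median of their array, at the 11.9th to 24.3rd percentile of the S. pombe probe sets. The scc2-4 allele alters a protein, so this transcript does not check the label.

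Against the same background, the probe set of SCC4 thus gave signal on all 7 arrays and that of its partner on none. The probe sets differ in sequence and response, so this does not rank the transcripts of the genes. Because SCC2 stayed under background, how its transcript varied beside that of SCC4 could not be read from these arrays. SCC4 spanned 1.40 log2 units over the arrays, with a median of 1.03 over all genes, and separated the array sets, at 11.07 to 11.56 in the set of 3 and 10.17 to 10.72 in the set of 4.

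**Figure D2:**
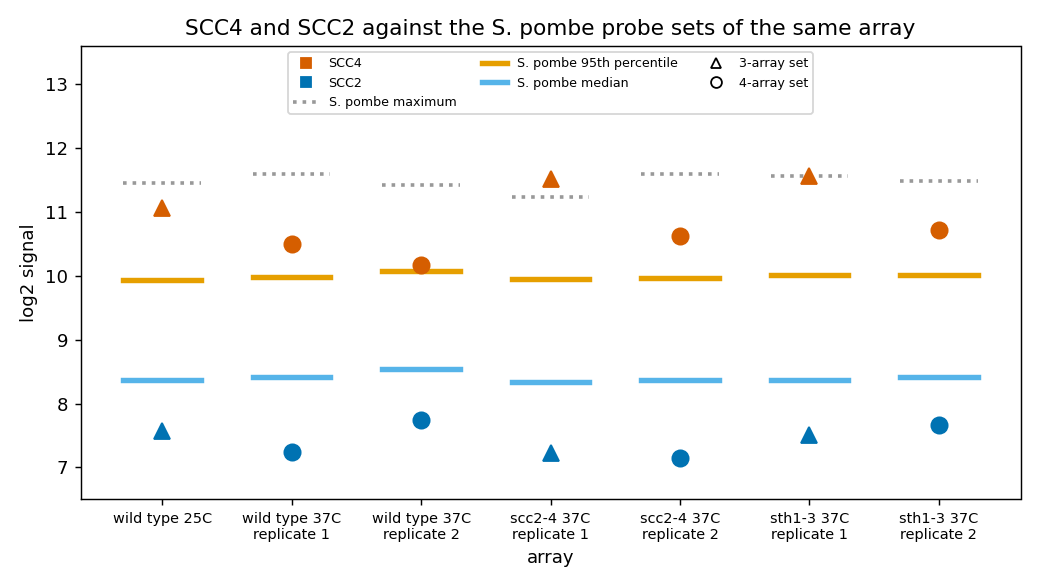
Log2 signal (vertical axis) of SCC4 and SCC2 on each array (horizontal axis), with the median, 95th percentile and maximum of the S. pombe probe sets of that array as lines. SCC4 lies above the 95th percentile on all 7 arrays and above the maximum on replicate 1 of either mutant, and SCC2 lies below the median on all 7.

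Of the ring genes, SMC1 and IRR1 came nearest to SCC4 in their standing to background, while SMC3 and MCD1 stayed under it. SMC1 (YFL008W), an ATPase arm of the ring, measured 9.39 in wild type at 25C, 10.35 and 9.78 in wild type at 37C, 9.52 and 10.07 in scc2-4, and 9.32 and 9.77 in sth1-3. It was above background on wild type 37C replicate 1 and scc2-4 replicate 2. The array sets did not overlap, with the set of 3 lower (9.32 to 9.52 against 9.77 to 10.35), opposite in direction to SCC4.

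IRR1 (YIL026C, also called SCC3) encodes the subunit that binds the kleisin and DNA. It measured 9.89 in wild type at 25C, 9.91 and 10.43 in wild type at 37C, 9.03 and 9.95 in scc2-4, and 9.72 and 9.10 in sth1-3. Wild type 37C replicate 2 was the 1 array above background. The low array was replicate 1 in scc2-4 and replicate 2 in sth1-3, so IRR1 did not follow the array sets (9.03 to 9.89 against 9.10 to 10.43).

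MCD1 (YDL003W), the kleisin that Esp1 cuts, measured 8.55 in wild type at 25C, 9.12 and 8.47 in wild type at 37C, 8.50 and 8.96 in scc2-4, where the protein is tagged, and 8.18 and 8.67 in sth1-3. Its values lay at the 42.6th to 75.7th S. pombe percentile, and the groups at 37C overlapped. SMC3 (YJL074C), the other ATPase arm, measured 8.03 in wild type at 25C, 7.77 and 7.96 in wild type at 37C, 8.20 and 8.02 in scc2-4, and 8.28 and 8.34 in sth1-3. Both mutants lay above wild type at 37C on both arrays, although all 7 values fell within a range of 0.57 and below the S. pombe median of their array.

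The regulators PDS5, ECO1 and RAD61 were not above background on any array. PDS5 (YMR076C) binds the kleisin and is needed to maintain cohesion. It measured 9.04 in wild type at 25C, 8.47 and 8.85 in wild type at 37C, 9.03 and 8.88 in scc2-4, and 9.52 and 9.00 in sth1-3, at the 52.1st to 87.4th percentile. The array sets did not overlap (9.03 to 9.52 and 8.47 to 9.00).

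ECO1 (YFR027W), the acetyltransferase, stayed between 8.18 and 8.55 and had the narrowest range of the 10 genes (0.38). RAD61 (YDR014W), the release factor also called WPL1, ranged from 7.12 to 7.51 (0.39). It lay at the 10.7th to 20.4th percentile, below the S. pombe median on all 7 arrays. The values of these genes were nearly flat, at levels where the array gave little signal.

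ESP1 (YGR098C), the separase, measured 7.80 in wild type at 25C, 7.66 and 7.35 in wild type at 37C, 7.82 and 7.44 in scc2-4, and 8.17 and 6.89 in sth1-3. The sth1-3 replicates were its highest and lowest arrays, 1.28 apart, and the array sets did not overlap (7.80 to 8.17 and 6.89 to 7.66). All 7 values lay below the S. pombe median.

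No member differed between scc2-4 and wild type at 37C past an adjusted p of 0.05 in limma, and 0 of the 5449 genes did (0%). The replicates of each mutant lay in different array sets, so the spread in this fit includes the difference between the sets. With the array set as a term, 7 genes passed and none was a member. Without that term, SCC4 had the smallest p of the 10 members. It averaged 11.08 ± 0.63 in the mutant and 10.34 ± 0.24 in wild type (SD, n = 2 each), a 1.67-fold higher mean signal, with a log2 difference of 0.74 (95% interval -0.26 to 1.74, adjusted p = 0.998, limma). The replicates of scc2-4 differed by 0.89, more than the groups did. With the array set as a term the difference was 0.31 (-0.43 to 1.04). In the set of 4 alone, or without scc2-4 replicate 1, it was 0.29. Both of these are the same subtraction, scc2-4 replicate 2 minus the mean of the wild type 37C arrays.

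SCC2 averaged 7.19 ± 0.05 in scc2-4 and 7.50 ± 0.35 in wild type (n = 2 each, adjusted p = 0.998, limma), and no fold is given because neither group was above background. IRR1 averaged 9.49 ± 0.65 in scc2-4 and 10.17 ± 0.37 in wild type. The groups overlapped and only 1 wild type array was above background, so no fold is given. The log2 difference of IRR1, -0.68, became -0.61 with the array set as a term and -0.23 in the set of 4 alone, which holds 1 scc2-4 array. SMC1 averaged 9.80 ± 0.39 in scc2-4 and 10.06 ± 0.41 in wild type, with overlapping groups and 1 of 2 arrays above background in each, so no fold is given. Its log2 difference of -0.27 became -0.016 with the array set as a term and 0.0099 in the set of 4 alone. Neither gene passed the threshold (adjusted p = 0.998 for both, limma). An unadjusted p under 0.05 was found for 0 of 10 members and 68 of all genes (1.25%). Without overlap between the groups were 5 members, against 29.2% of all genes. In 4 of them (SCC4, SMC3, PDS5 and ECO1) scc2-4 was higher, against 15% of genes, and in SCC2 it was lower, against 14.1%. Of these 5 members only SCC4 was above background on any array. The median member difference was 0.084, with 6 higher and 4 lower, and the median over all genes was -0.0051.

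In sth1-3 against wild type at 37C, again no member and 0 genes passed (0%). With the array set as a term, 10 genes passed and none was a member. SCC4 was 1.75-fold higher in mean signal, at 11.14 ± 0.60 against 10.34 ± 0.24 (SD, n = 2 each, log2 difference 0.80, 95% interval -0.19 to 1.80, adjusted p = 0.824, limma). With the array set as a term the difference was 0.37 (-0.37 to 1.11), and in the set of 4 alone, from 1 sth1-3 array, it was 0.38. The wild type arrays are shared with the comparison of scc2-4, so the likeness of the SCC4 values in both is not independent.

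IRR1 averaged 9.41 ± 0.44 in sth1-3 and 10.17 ± 0.37 in wild type, a log2 difference of -0.76. SMC1 averaged 9.55 ± 0.32 and 10.06 ± 0.41, a difference of -0.52. No fold is given, since only 1 wild type array was above background for each gene. With the array set as a term the differences were -0.68 for IRR1 and -0.27 for SMC1. In the set of 4 alone, which holds 1 sth1-3 array, they were -1.07 and -0.29. Neither sth1-3 array overlapped wild type for either gene. For SMC1 the nearest arrays were 9.770 in sth1-3 and 9.778 in wild type, both under background. Both genes had an adjusted p of 0.824 (limma). PDS5 (9.26 ± 0.37 against 8.66 ± 0.27) and SMC3 (8.31 ± 0.04 against 7.86 ± 0.14) had higher means in sth1-3 without rising above background, also at an adjusted p of 0.824. An unadjusted p under 0.05 was found for 0 members and 206 genes (3.78%). Groups without overlap occurred in 5 members and 36.8% of genes. In SCC4, SMC3 and PDS5 sth1-3 was higher, against 18% of genes, and in SMC1 and IRR1 it was lower, against 18.8%. The median member difference was 0.0064, with 5 higher and 5 lower, and that of all genes 0.030.

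**Figure D3:**
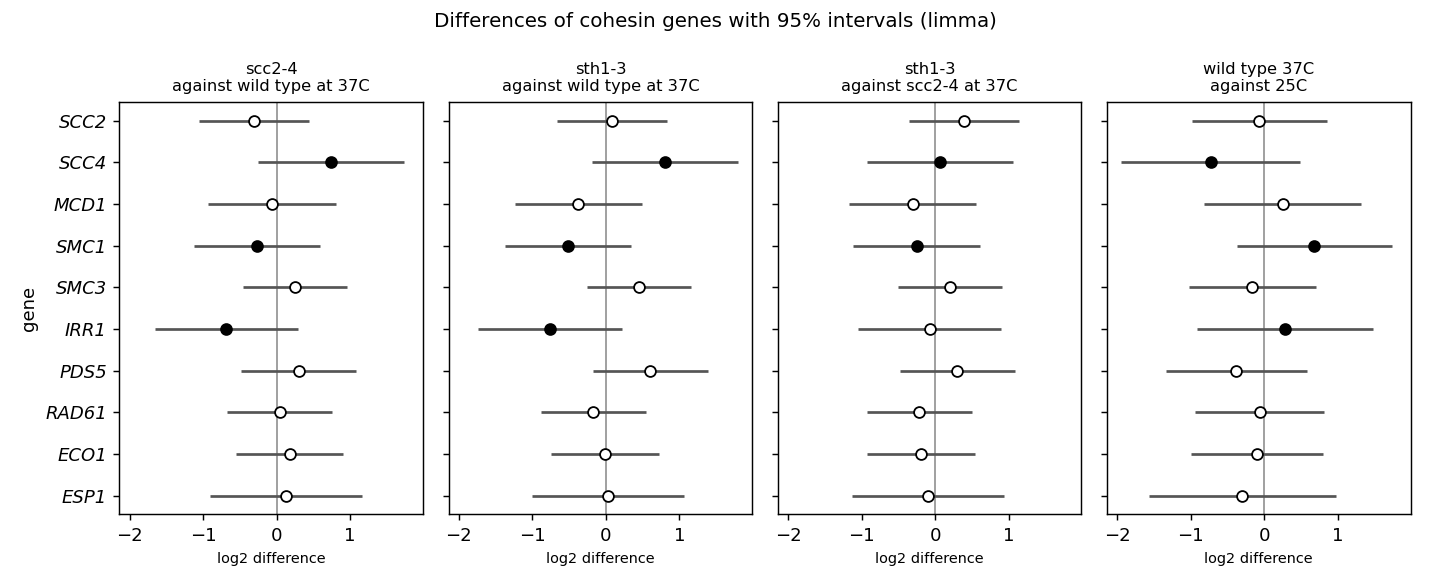
Log2 difference (horizontal axis) of each cohesin gene (vertical axis) in the 4 comparisons, with bars for the 95% interval from limma, filled points where at least 1 array of either group was above background and open points where none was. Every interval includes 0, and SCC4 in the comparisons of each mutant with wild type lies at 0.74 and 0.80.

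The mutants were compared directly to ask whether loss of Scc2 and of Sth1 leave different levels. SCC4 was alike in them within wide limits, 11.14 ± 0.60 in sth1-3 and 11.08 ± 0.63 in scc2-4 (SD, n = 2 each), a difference of 0.065 with a 95% interval of -0.93 to 1.06 (adjusted p = 1.00, limma). Within the set of 3 the difference was 0.043 and within the set of 4 it was 0.087. SCC2 had the smallest p of the members, at 7.58 ± 0.11 in sth1-3, where it is tagged, and 7.19 ± 0.05 in scc2-4, below background in both (adjusted p = 1.00, limma). No gene passed the threshold (0%), and 0 members and 21 genes (0.385%) had an unadjusted p under 0.05. The groups did not overlap in 4 members, against 18.1% of genes. SCC2 and SMC3 were the ones higher in sth1-3 (8.44% of genes), and RAD61 and ECO1 the lower ones (9.62%). None of these 4 was above background on any array.

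In wild type cells, the 37C arrays were set against the only array at 25C, which lies in the other array set, so temperature and array set cannot be told apart for wild type. SCC4 was 1.66-fold lower at 37C (10.34 ± 0.24, n = 2, against 11.07 on 1 array, log2 difference -0.73, 95% interval -1.95 to 0.49, adjusted p = 0.534, limma). With the array set as a term, which rests on the mutant arrays, the difference was 0.14. SMC1 averaged 10.06 ± 0.41 at 37C against 9.39, and IRR1 10.17 ± 0.37 against 9.89, with adjusted p = 0.512 and 0.811 (limma). Only 1 of the 37C arrays was above background for each gene and the 25C array was not, so no fold is given. No gene passed (0%), and at an unadjusted p under 0.05 there were 0 members and 555 genes (10.2%). The 25C value lay outside the 37C range in 6 members, against 81.2% of all genes. Of these, SMC1 and IRR1 were higher at 37C, against 31.1% of genes, and SCC4, SMC3, PDS5 and ESP1 lower, against 50.1%. SMC3, PDS5 and ESP1 were not above background on any array.

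Ordered by group mean as deposited, SCC4 was lowest in wild type at 37C (10.34), followed by wild type at 25C (11.07), scc2-4 (11.08) and sth1-3 (11.14). The first step had an adjusted p of 0.534 (limma), and the 3 higher means lay closer together than the SD of either mutant. The order holds only without the array sets: wild type at 37C was measured wholly in the set of 4 and wild type at 25C wholly in the set of 3, and with the set as a term 37C exceeded 25C by 0.14. The lowest value of the other 3 groups, 10.63 on scc2-4 replicate 2, lay just above the higher wild type 37C array (10.51), and the wild type arrays were 0.34 apart.

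The array sets did not overlap in 4 of 10 members, close to the 35.6% of all genes. SCC4 was higher and SMC1 lower in the set of 3, and the other genes, PDS5 and ESP1, were not above background on any array. Relative to the wild type 37C mean, SCC4 stood at 0.73 on the wild type 25C array and at 1.18 and 1.23 on replicate 1 of scc2-4 and sth1-3, but at 0.29 and 0.38 on their replicates 2. SMC1 stood at -0.68, -0.54 and -0.74 on the former arrays and at 0.0099 and -0.29 on the latter. Within the set of 3, SCC4 in the mutants at 37C exceeded wild type at 25C by 0.46 and 0.50, a difference of 1 array each in which strain and temperature cannot be told apart.

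**Figure D4:**
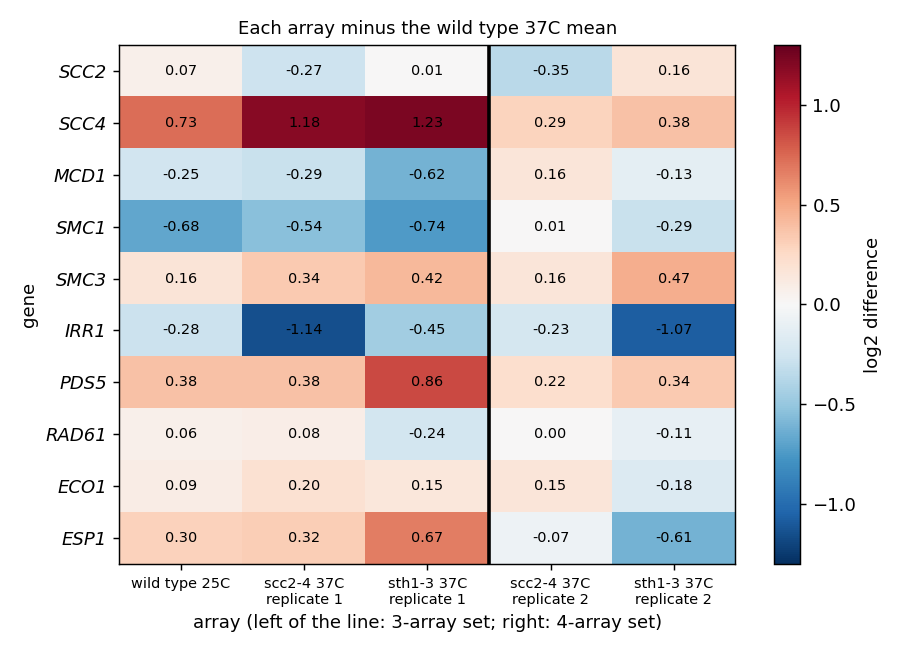
Log2 difference from the wild type 37C mean (colour and printed value) of each cohesin gene (vertical axis) on the 5 other arrays (horizontal axis), with the 3-array set left of the line and the 4-array set right of it. SCC4 is at 0.73 to 1.23 on the left and 0.29 to 0.38 on the right, and IRR1 is lowest on 1 array of each mutant, at -1.14 and -1.07, where it was below background.

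Genes around cohesin gave little more signal, and none was called in any of the 4 comparisons. Of 11 genes for removal and protection of cohesin, PDS1 and CDC14 were above background on every array, which held for 2.13% of all genes. PDS1, the securin that holds Esp1 inactive, measured 10.33 in wild type at 25C, 11.20 and 11.56 in wild type at 37C, 10.78 and 11.40 in scc2-4, and 10.44 and 11.19 in sth1-3. CDC14, the phosphatase of mitotic exit, measured 10.57, 11.60 and 11.77, 10.47 and 11.27, and 10.54 and 11.10 in the same order. In both genes the set of 3 was lower than the set of 4, as for SMC1. SGO1, the shugoshin of centromeres, was above background on the 4 arrays of the latter set (10.19 to 10.55) and at 8.48 to 8.62 on the others. The list had a median difference of -0.17 in scc2-4 and -0.45 in sth1-3 against wild type at 37C, with 8 and 9 of 11 genes lower and none called (lowest adjusted p = 0.998 and 0.824, limma). The median over all genes was -0.0051 and 0.030. Only 3 of the 11 genes were above background on any array, against 22.6% of all genes. Replicate 1 of each mutant lies in the set of 3 and wild type at 37C wholly in the set of 4. Strain and array set are therefore mixed in these differences. In wild type at 37C against 25C, where the 25C array belongs to the set of 3, the median of the list was 0.52, with 8 of 11 genes higher and none called (lowest adjusted p = 0.449, limma).

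Among 12 cohesion factors of the replication fork, CTF4, a replisome adaptor (9.58 to 10.25), and POL30, the sliding clamp PCNA (8.66 to 10.19), were above background on 2 arrays each. Of 5 genes of meiotic cohesin and monopolin, CSM1 of monopolin (9.11 to 10.63) passed on 5 arrays and SPO13, a meiotic regulator (8.86 to 10.66), on 4. MMS21, the SUMO ligase of the Smc5/6 complex and 1 of 8 genes listed for it, was above background on every array (10.03 to 10.98). None of 11 centromeric receptors of the loader and none of 5 condensin genes was above background on any array. Over all genes, 22.6% were above it on at least 1 array and 2.13% on every array. With lists this short, the counts do not set these genes apart from the rest.

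MCD1 and several other cohesin genes are transcribed periodically in the cell cycle, so phase markers were read beside them. Of 13 G1/S genes measured, POL1, the catalytic subunit of DNA polymerase alpha (9.60 to 10.30), and CDC9, the DNA ligase (9.72 to 10.14), were above background on 4 arrays each, and of 11 G2/M genes none was. The share over all genes was 22.6% on at least 1 array. The G1/S list had a median difference of -0.29 in scc2-4 and -0.24 in sth1-3, with 12 and 8 of 13 genes lower, and the G2/M list -0.23 and -0.34, with 9 and 8 of 11 lower. None was called (lowest adjusted p = 0.998 in scc2-4 and 0.824 in sth1-3, limma). The median over all genes was -0.0051 in scc2-4 and 0.030 in sth1-3. Most of these marker genes were below background on every array, so their direction is not a reading of phase. Replicate 1 of each mutant also lies in the other array set than wild type at 37C. The part of cell cycle position in the members' values was not tested.

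The S. pombe genes of the same complex showed how a few such probe sets behaved without their own transcript. Whether S. cerevisiae transcripts bound to them was not tested. Named probe sets existed for psm1, rec8, pds5 and wpl1, 4 of 13 listed, and none rose above background on any array. The psm1 probe set, for the counterpart of SMC1, ranged from 8.42 to 9.72, rec8 from 7.69 to 8.48, pds5 from 6.94 to 7.65 and wpl1, the counterpart of RAD61, from 6.29 to 7.35. Like SMC1, psm1 was lower in the set of 3 (8.42 to 8.91) than in the set of 4 (8.92 to 9.72). So was rec8 (7.69 to 7.88 against 8.01 to 8.48), while S. pombe pds5 and wpl1 overlapped between the sets. The cause was not tested. The 7 members that stayed under background ranged from 6.89 to 9.52 on the same arrays. These members were picked for being under background, so their lying within the pooled interval of the 4 probe sets shows little. By counterpart, PDS5 (8.47 to 9.52) lay wholly above S. pombe pds5, and RAD61 (7.12 to 7.51) overlapped wpl1. The probe sets differ in sequence, so this does not show that PDS5 was detected.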

How the data were processed

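Values were the log2 signals that the authors deposited, 1 per probe set and array (10928 probe sets, 4.97 to 14.7). Per the submitters' processing notes they were made with RMA and the affy package, versions not given, and whether all 7 arrays were normalized together is not given in the sources used here. Probe sets were named from the platform annotation (7244 with 1 symbol, 1 with several, 3683 unnamed here), with symbols updated through S. cerevisiae R64. The brightest probe set represented a gene. The temperature of the 25C array rests on its title, since its growth protocol describes the shift. All 7 arrays were fitted with a mean per group in limma 3.58.1 (R 4.3.3), two-sided, with Benjamini-Hochberg adjustment over 5449 genes, 3 residual and 5.26 prior degrees of freedom. The code was tested on simulated data with equal, independent noise and no array sets. That test does not show how the fit performs with the split of these arrays. With 1 or 2 arrays a group, the 95% interval of a member's difference between 37C groups had a median half-width of 0.82 log2 units. No fold is given where a group had an array below background. No pair of arrays held identical values. The members, lists and alternatives were chosen with earlier results of these data known. All members were named, with the brightest genes of the other lists, those above background on all arrays, and the 5 genes most like SCC4. Alternatives covered the variance model, normalization, probe sets, dim genes, background level, replicate block, array set and each replicate. No sequence or coordinate was used.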

Additional observations from a re-analysis of the deposited data

How the results depend on the processing

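No member passed the threshold under any alternative (598 member differences, lowest adjusted p = 0.216, limma), and 41 of them changed sign, all of uncalled differences. Centring on the S. pombe median turned MCD1 in scc2-4 to 0.059 and ECO1 in sth1-3 to 0.068, and moved the median of all genes in scc2-4 from -0.0051 to 0.12 (members 0.21) and in wild type 37C against 25C from -0.17 to -0.28. Quantile normalization over S. cerevisiae genes turned ESP1 in sth1-3 to -0.031 and, in wild type 37C against 25C, SCC2 to 0.17, SMC3 to 0.084, RAD61 to 0.17 and ECO1 to 0.10, with the median of all genes at 0.015. With the array set as a term, MCD1 in scc2-4 was 0.17, ESP1 -0.29 there and -0.39 in sth1-3, and for wild type 37C against 25C SCC4 was 0.14, MCD1 -0.22, ECO1 0.092 and ESP1 0.53. In the 4-array set alone, with 1 array of each mutant, MCD1 in scc2-4 was 0.16, SMC1 0.0099 and ESP1 -0.067, and ESP1 in sth1-3 was -0.61.

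Leaving out each 37C replicate in turn gave, in scc2-4 against wild type, -0.40 to 0.26 for MCD1, -0.55 to 0.021 for SMC1, -0.11 to 0.19 for RAD61 and -0.067 to 0.32 for ESP1. In sth1-3 against wild type it gave -0.16 to 0.33 for SCC2, -0.18 to 0.15 for ECO1 and -0.61 to 0.67 for ESP1. In sth1-3 against scc2-4 it gave -0.38 to 0.51 for SCC4, -0.53 to 0.024 for SMC1, -0.53 to 0.38 for IRR1 and -0.74 to 0.54 for ESP1. In wild type 37C against 25C it gave -0.32 to 0.18 for SCC2, -0.082 to 0.58 for MCD1, -0.24 to 0.046 for ECO1 and -0.21 to 0.088 for RAD61. The cause of these changes was not tested.

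Over all genes, 0 were called by default, with a trend and with robust hyperparameters. With the replicate number as a block there was 1 each in the comparisons of scc2-4, of sth1-3 and of the temperatures, none a member. Replicate deviations correlated at -0.20 and -0.36 between wild type and scc2-4 or sth1-3, so the numbers do not pair the arrays across all groups. Between the mutants they correlated at 0.55, where replicate 1 lies in the set of 3 and replicate 2 in the set of 4. The array set term called 7 genes in scc2-4, 10 in sth1-3 and 4 between the temperatures, and the 4-array set alone 6, 13 and, between the mutants, 1. Leaving out a replicate called 0 to 1 in scc2-4 and between the temperatures. At the 99th S. pombe percentile, 0 members were above background on every array and 1 (SCC4) on at least 1. At the 90th percentile, and with quantile normalization over both species, added after the data were seen, the counts stayed within 1.5 times. Quantile normalization over S. cerevisiae genes alone was not run for these counts, since it removes the common scale with the background, and the 25C comparison has no value in the 4-array set.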

Other observations

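The genes whose pattern over the 7 arrays was most like that of SCC4, among the 115 others above background on every array, were GPA1, the alpha subunit of the pheromone receptor's G protein (r = 0.97), CCW12, a cell wall mannoprotein (0.95), MET12, a methylenetetrahydrofolate reductase (0.95), TDH3, a glyceraldehyde-3-phosphate dehydrogenase (0.94), and YDR524C-B (0.90). These values are Pearson's r over 7 arrays as a measure of likeness, and the arrays share the split into sets of 3 and 4, which SCC4 also follows. The difference of SCC4 between the sets exceeded that of 88.6% of all genes.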
